A study of Mus musculus with 12 samples.

Results

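The genes described here are 40 genes of mitosis and the spindle checkpoint, taken by symbol from a table of 24421 entries of RNA sequencing in cells sorted from the postnatal mouse cerebellum. They are cyclins A and B with Cdk1 and its phosphatases, the mitotic kinases, the spindle checkpoint, the anaphase machinery, kinetochore proteins, the chromosomal passenger complex, spindle and cytokinesis proteins, condensin, the proliferation marker Mki67, topoisomerase Top2a and the transcription factors Foxm1 and Mybl2, and the kinesin motors are not among them. All 40 were found in the table, and all 40 reached a normalized count of 10 in 3 or more libraries, as did the 15464 genes that were tested. All libraries came from mice of the genotype Aldh1l1-GFP on the C57/BL6J background, in which the promoter of the astrocyte gene Aldh1l1 drives green fluorescent protein (GFP), and GFP-positive cells were collected by flow cytometry from the cerebellum at postnatal day 1, 7, 14 or 28 (P1, P7, P14 and P28), with 3 libraries per age and mice of both sexes. The cells are defined by GFP alone, so any cell in which this promoter is active, or in which GFP persists, can be in the sort. The labels number the libraries as replicates and do not say that they came from separate animals, so the p-values measure the spread between these libraries, which may be technical.

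In a dividing cell, Cdk1 bound to A- and B-type cyclins drives entry into mitosis, condensin and topoisomerase II shape the chromosomes, and the kinetochore ties each chromosome to spindle microtubules. The spindle checkpoint holds back the anaphase-promoting complex and its activator Cdc20 until every kinetochore is attached, after which securin and cyclin B are degraded and the cell divides. Most of these genes are transcribed late in the cell cycle and are silent in cells that have left it, and the first postnatal weeks of the cerebellum are a time when glial progenitors, interneuron progenitors and granule neuron precursors divide.

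The mitosis genes were high in the first postnatal week and low from P14 on. Without Anln and Pttg1, whose courses differed and are described below, the summed normalized count of the other 38 genes was 27360, 16926 and 27691 in the P1 libraries, 36445, 46278 and 39977 at P7, 3510, 2396 and 2534 at P14, and 1248, 1047 and 1681 at P28. The libraries of neighbouring ages did not overlap in this sum, and its mean was 1.70-fold higher at P7 than at P1, 14.5-fold lower at P14 than at P7, and 2.12-fold lower at P28 than at P14. An exact permutation test of 3 libraries against 3 gave a two-sided p of 0.1 for each of these steps. This is the smallest p it allows and follows from the lack of overlap, so it adds nothing to it. Anln and Pttg1 were left out of the sum with their values known. Of the 40 genes, 38 had their highest mean at P7, while Anln was highest at P14 and Pttg1 at P28. In bulk RNA, fewer dividing cells and less of these transcripts per cell cannot be told apart.

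**Figure D1:**
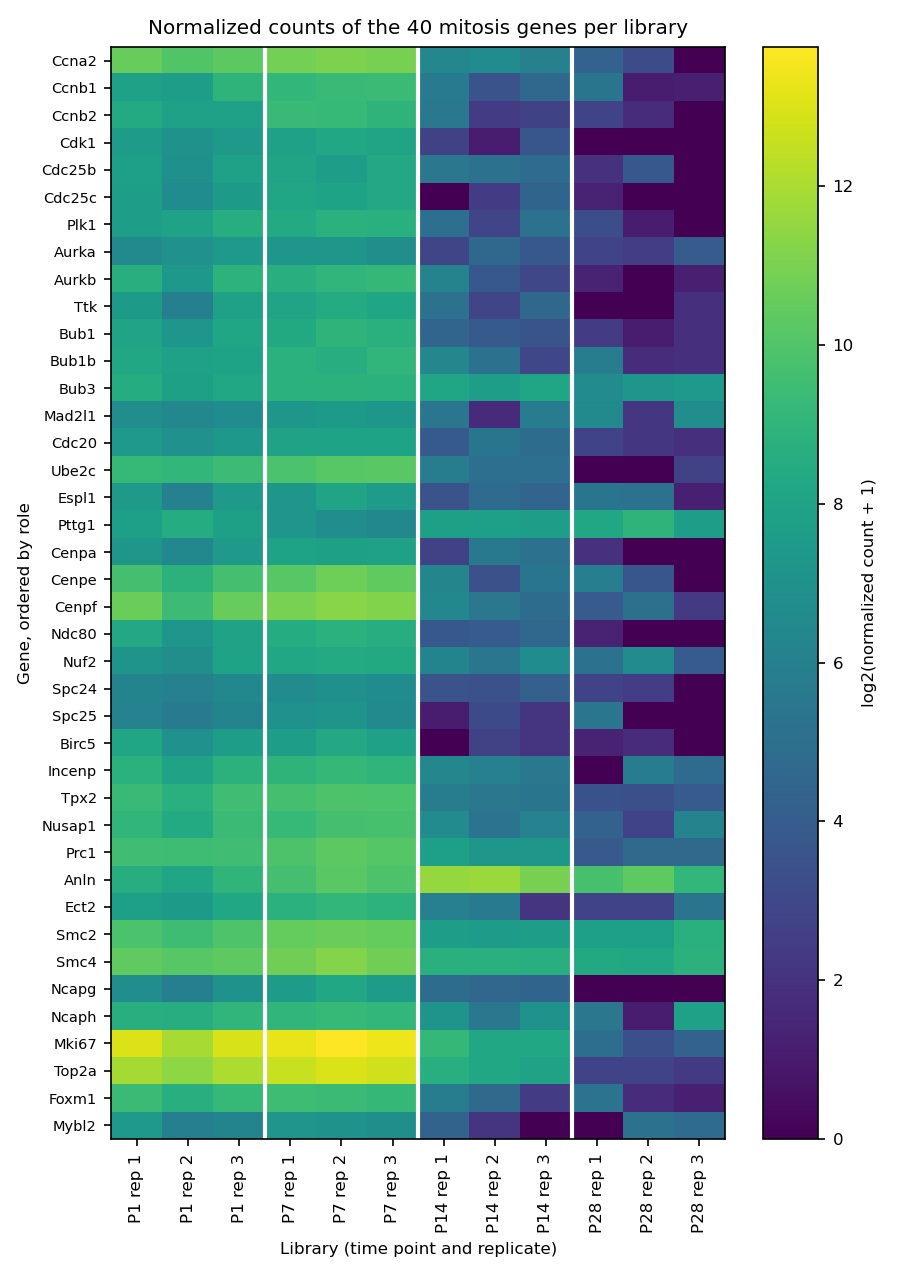
Each row is 1 of the 40 mitosis genes, ordered by role, and each column is 1 of the 12 libraries; colour gives log2(normalized count + 1). The P1 and P7 columns are bright for nearly all genes and the P14 and P28 columns darker for most. Anln, Pttg1, Bub3, Smc2 and Smc4 stay visible in every P28 library, and some others, such as Mad2l1, Nuf2 and Ncaph, in part of them.

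The libraries held 6399499 to 14733985 reads on genes, with 1 read worth 0.615 to 1.46 normalized counts. The astrocyte label was checked against 10 markers, all of which had reads in every library; their summed normalized count per library was 59407 to 74423 at P1 and 29291 to 53547 at P7, and was 154959 to 191092 and 358112 to 419126 at the later 2 ages. Aldh1l1 itself was lower at P7 than at P1, by 1.80 on the log2 scale (limma, Benjamini-Hochberg adjusted p = 4.66e-04). Markers of other cells were present as well. The 10 markers of myelinating oligodendrocytes summed to 1570 to 2646 at P1 and 349451 to 397877 at P14, and the transthyretin gene Ttr of the choroid plexus averaged 399 ± 251 (SD, n = 3) at P1 and 77688 ± 42277 at P7. Ttr had 107436, 62320 and 796 in the P14 libraries and 102429, 179566 and 17368 in those of P28, so the later libraries differed within an age as well. The globin genes Hba-a1, Hba-a2, Hbb-bs and Hbb-bt were listed at 0 in every library, and Alas2 was the only detected gene of the red blood cell list. The 8 granule neuron markers summed to 2823 to 3579 at P1 and 13132 to 24853 at P14, the 6 Purkinje cell markers to 1121 to 1527 and 2352 to 2583, the 7 microglia markers to 504 to 1348 and 1924 to 3012, and the 7 endothelial markers to 786 to 3597 and 5631 to 6475.

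In genes of this kind, a CCAAT box and, closer to the start, a cell cycle genes homology region with the core TTTGAA are well-known promoter elements. The promoter table of RefSeq (build GRCm38.p6, 250 bases before to 50 after each start) held 35 promoters of 32 of the 40 genes, and none was found for Ccna2, Aurkb, Cdc25c, Spc24, Incenp, Tpx2, Smc4 and Foxm1. TTTGAA, on either strand, was in at least 1 promoter of 21 of the 32 genes (65.6%), against 17.9% of the 32851 promoters in the table and 20.2% of its 27025 genes. CCAAT, on either strand, was in 23 of 32 (71.9%), against 37.4% of promoters and 41.1% of genes. Sites for E2F factors, spelled TTTCCCGC or TTTGGCGC on either strand, were in 1 of 32 (3.12%), Ncapg, against 1.56% of promoters. Within the 50 bases before the start, TTTGAA was found in 8 genes, Bub3, Cdc20, Cdk1, Espl1, Ncapg, Prc1, Top2a and Ube2c, against 2.63% of all promoters, and CCAAT in 14 genes, against 8.56%. RefSeq starts can lie inside the gene as GENCODE annotates it, and for 6 of the 35 promoters the 80 bases before the start reached more than 30 bases into that gene. These were Ube2c, Ccnb1, Cenpa, Pttg1 and both promoters of Bub3, and all but that of Ube2c lay wholly inside it. To show where the motifs sit, the 80 bases are printed for the 6 of the 8 genes that are not among these, and for Anln, whose course differed. Capitals mark TTTGAA or its reverse complement TTCAAA, and CCAAT or its reverse complement ATTGG.
Cdk1 (chr10:69352913-69352992, minus strand): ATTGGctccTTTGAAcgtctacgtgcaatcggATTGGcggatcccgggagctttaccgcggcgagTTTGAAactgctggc
Top2a (chr11:99024190-99024269, minus strand): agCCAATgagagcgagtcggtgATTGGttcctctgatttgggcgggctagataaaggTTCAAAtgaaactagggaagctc
Cdc20 (chr4:118437344-118437423, minus strand): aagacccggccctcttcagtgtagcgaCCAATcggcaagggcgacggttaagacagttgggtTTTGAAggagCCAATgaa
Ncapg (chr5:45669845-45669924, plus strand): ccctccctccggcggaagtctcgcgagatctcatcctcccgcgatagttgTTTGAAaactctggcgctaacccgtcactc
Espl1 (chr15:102296213-102296292, plus strand): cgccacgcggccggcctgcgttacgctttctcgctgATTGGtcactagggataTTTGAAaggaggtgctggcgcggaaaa
Prc1 (chr7:80294396-80294475, plus strand): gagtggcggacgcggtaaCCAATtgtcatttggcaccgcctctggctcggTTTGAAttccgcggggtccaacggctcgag
Anln (chr9:22389207-22389286, minus strand): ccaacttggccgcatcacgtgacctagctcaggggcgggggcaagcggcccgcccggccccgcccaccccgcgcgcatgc
The stretch of Anln held neither motif, although Anln had TTTGAA within the bases after its start. Of the 25 genes with TTTGAA or CCAAT in a promoter, 23 were called lower from P7 to P14, all but Bub3 and Anln. Of the 7 with neither, 4 were, all but Mad2l1, Pttg1 and Ncaph. Over the whole set 35 of 40 were called lower, against 10.0% of all genes tested. The share among all genes with or without these letters was not taken. Whether the fall goes with the letters was not tested, and 7 genes are few for a comparison. The window of Pttg1 does not describe the sequence before its GENCODE start. A match or its absence describes these letters in this window and not the binding of a factor.

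**Figure D2:**
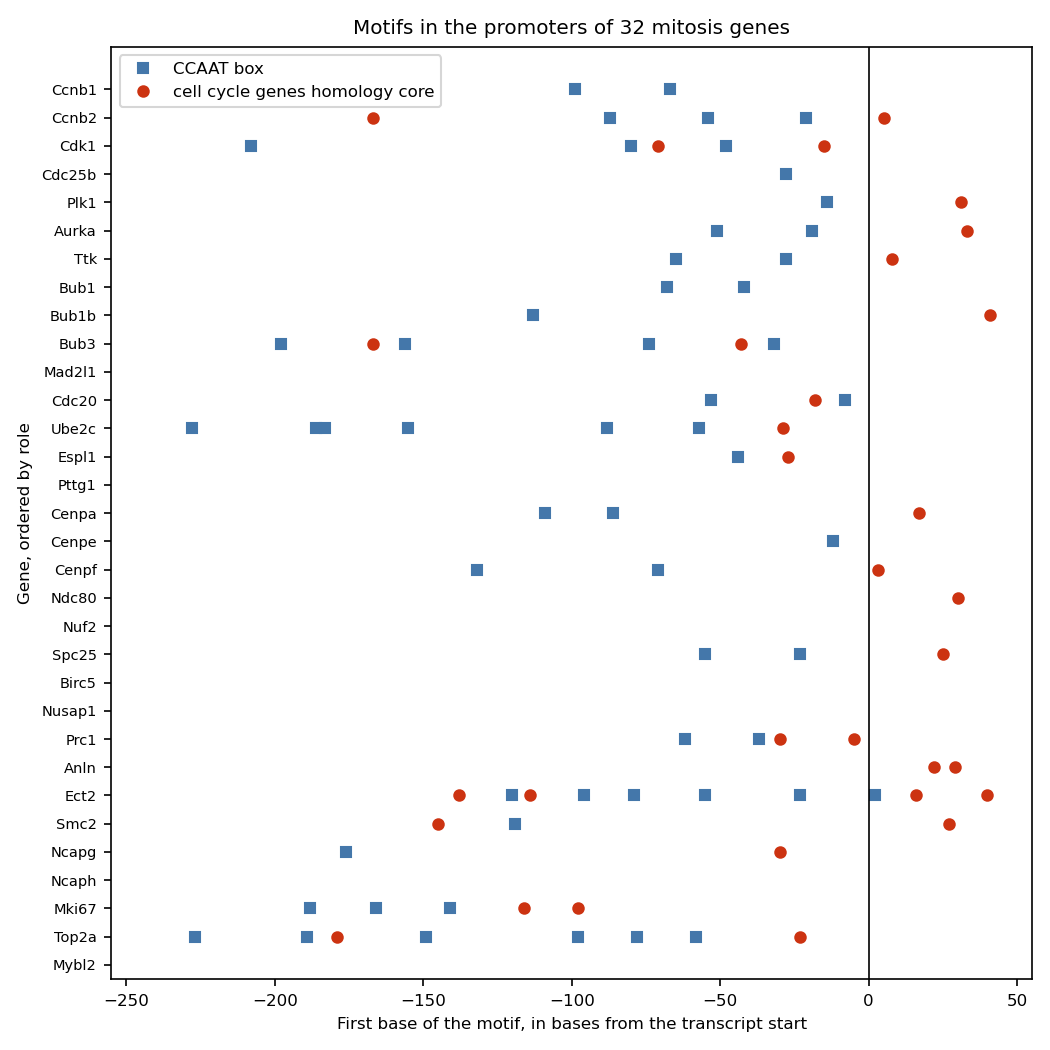
Each row is 1 of the 32 mitosis genes with a promoter in the reference table, and the horizontal axis gives the first base of each motif in bases from the transcript start, from 250 before to 50 after. Circles mark TTTGAA and squares mark CCAAT, on either strand; TTTGAA lies within 50 bases before the start in 8 genes and CCAAT in 14.

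The first step, P1 to P7, asks whether mitotic transcripts were still increasing after birth. The mean on the log2(normalized count + 1) scale was above that of P1 at P7 for 39 of 40 genes and below it for Pttg1. The median log2 fold change was 0.72 over the 40 genes and 0.037 over all genes tested. Only 2 genes passed an adjusted p of 0.05 in limma, Top2a and Anln. Both were higher at P7, where 3.47% of all genes tested were called higher, and 0 were called lower, where 4.24% of all genes were. An unadjusted p under 0.05 was reached by 6 of the 40, a count for which the share of all genes was not taken. The 3 libraries of P7 all lay above the 3 of P1 for 30 of the 40 genes, against 20.1% of all genes tested. The limma fit takes 1 spread over 4 ages, and the median standard error of these genes was 0.76, against 0.46 for all genes. When only the P1 and P7 libraries were fitted, 16 genes passed as higher and Pttg1 as lower, where 8.72% of all genes were called higher. These 16 were Ccna2, Ccnb1, Ccnb2, Bub1, Bub1b, Ube2c, Cenpe, Cenpf, Nuf2, Prc1, Anln, Ect2, Smc2, Smc4, Ncapg and Top2a. On the recovered reads, edgeR called 2 higher (background 3.16%) and DESeq2 called 5 higher (background 5.39%) and Pttg1 lower.

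The second step, P7 to P14, was where most of the loss occurred. Of the 40 genes, 35 fell and 1, Anln, rose, where 10.0% of all genes tested were called lower and 10.8% higher. Their median log2 fold change was -4.13, against -0.086 over all genes, and the largest fall was that of Birc5 at -6.37. All 3 libraries of P14 lay below all 3 of P7 for 38 genes, against 24.8% of all genes tested. Bub3, Mad2l1, Ncaph and Pttg1 passed in neither direction, a call that turned with the fit. When only the P7 and P14 libraries were fitted, Bub3, Mad2l1 and Ncaph passed as lower (adjusted p = 0.0156, 0.0349 and 0.00112) and Pttg1 as higher (0.0351). Over the alternatives that fitted all libraries, their adjusted p ranged from 0.0194 to 0.0990 for Bub3 and 0.0356 to 0.119 for Mad2l1. The range was 0.0317 to 0.194 for Ncaph and 0.0683 to 0.210 for Pttg1.

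In the third step, P14 to P28, 17 genes fell and 0 rose, where 8.76% of all genes were called lower and 5.68% higher. The median log2 fold change was -1.88, against -0.122 over all genes, and it was -1.83 with the 2 genes at 0 reads at P28 set to the change that a floor of 3 reads in each library allows. When only the P14 and P28 libraries were fitted, 6 genes passed, Ndc80, Prc1, Anln, Ncapg, Mki67 and Top2a. The share of all genes passing in that fit was not taken. The libraries did not overlap and lay lower at P28 for 18 genes, against 14.5% of all genes tested. Anln is among the 17, so that 16 genes with the common course fell a second time. From P1 to P28, over the whole period, 36 genes fell and Anln rose, where 20.0% of all genes were called lower and 14.6% higher, and Mad2l1, Pttg1 and Mybl2 passed in neither direction. The median over this period was -5.58, or -5.21 with the same 2 genes at their bound, against -0.235 over all genes. These changes are on the log2(normalized count + 1) scale, where the added 1 shrinks the change of genes near 0. Where libraries scatter, this change can also be larger than that of the means or differ in sign. From P14 to P28 Ncaph changed by -1.73 although its mean was 1.11-fold lower. Spc25 changed by -0.27 although its mean was 3.49-fold higher.

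**Figure D3:**
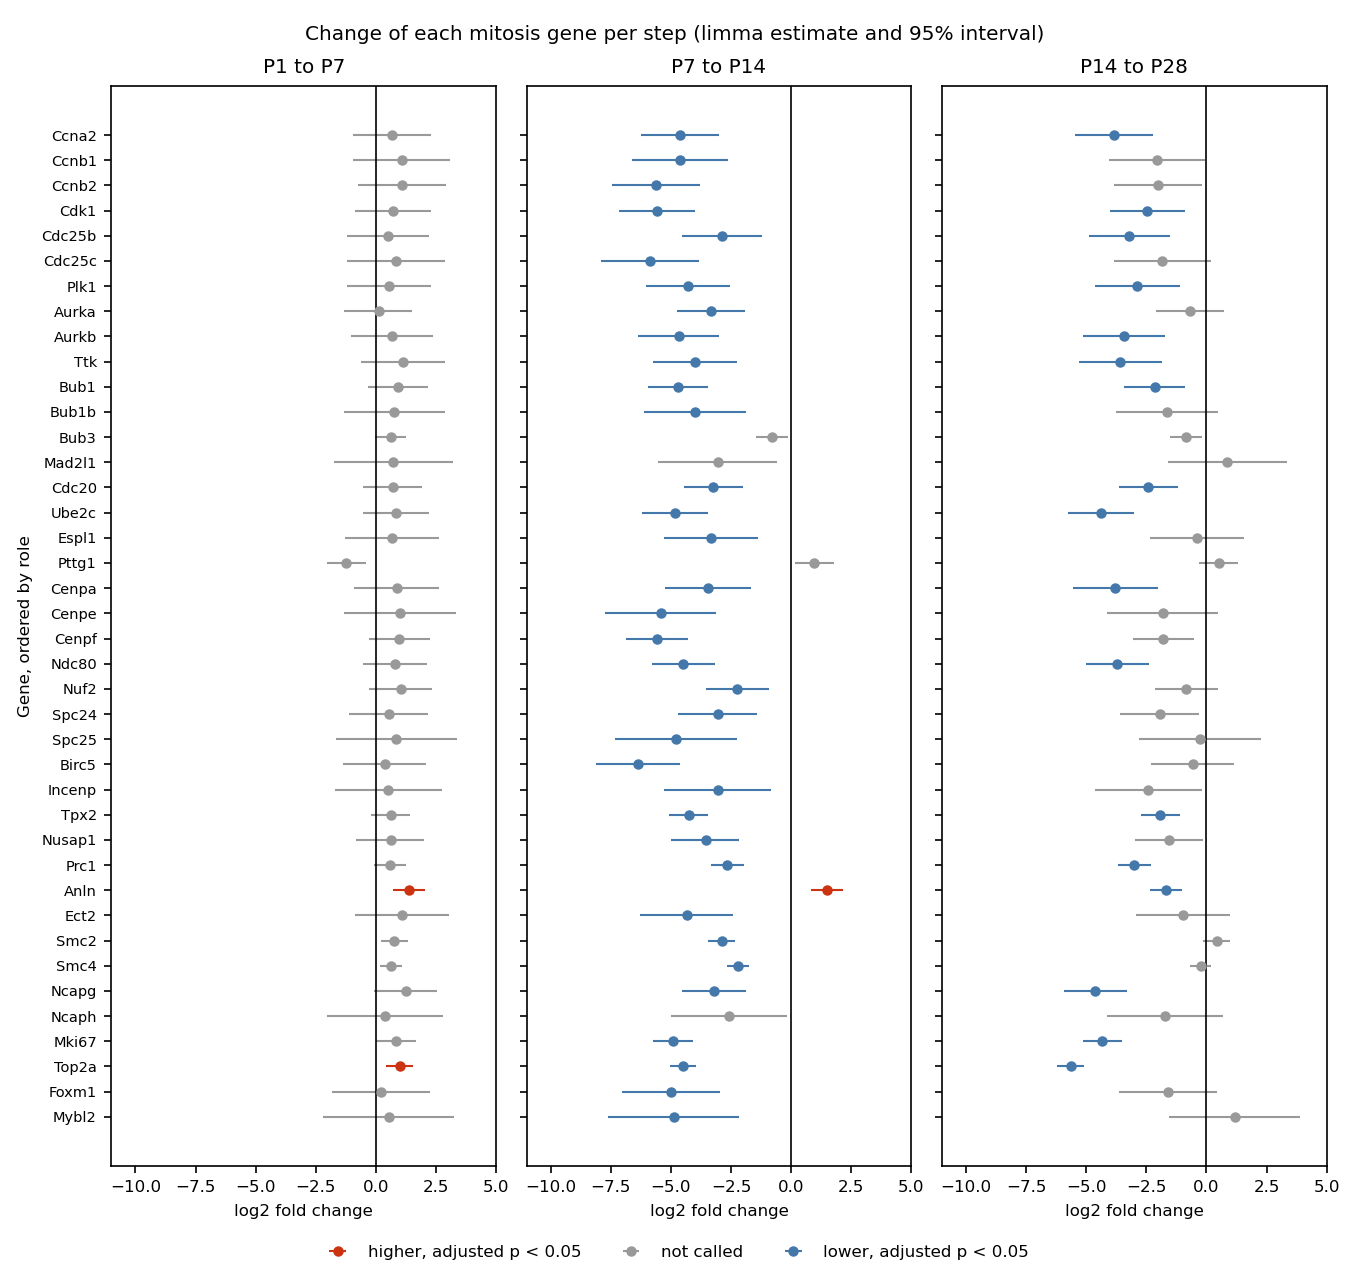
Points give the limma log2 fold change of each of the 40 mitosis genes in the 3 steps between neighbouring ages, on the log2(normalized count + 1) scale, with 95% intervals as bars; colour marks genes called higher or lower at an adjusted p under 0.05. In the first step 39 points lie right of 0 with 2 called, in the second 35 are called lower and 1 higher, and in the third 17 are called lower.

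The 6 genes of the mitotic entry switch, Ccna2, Ccnb1, Ccnb2, Cdk1, Cdc25b and Cdc25c, all fell from P7 to P14, with log2 fold changes of -2.88 (Cdc25b) to -5.87 (Cdc25c), and 3 of them fell again by P28. Ccna2, which encodes cyclin A2 and was the most abundant of them per length, had normalized counts of 1525, 1021 and 1260 at P1, 1900, 2120 and 1987 at P7, 82.6, 99.4 and 63.0 at P14, and 19.0, 8.26 and 0 at P28. Neighbouring ages did not overlap at any step. The P7 mean was 1.58-fold above that of P1 (log2 fold change 0.68 ± 0.75 SE, adjusted p = 0.752), and the P14 mean was 24.5-fold below that of P7 (-4.62 ± 0.75, adjusted p = 5.25e-04). Cdk1, the kinase itself, had 186, 129 and 170 at P1, 231, 305 and 259 at P7, 5.30, 1.06 and 11.9 at P14, and 0 in all 3 libraries at P28. It fell 43.4-fold from P7 to P14 (-5.58 ± 0.73, adjusted p = 8.53e-05). At P28 its level was at least 40.5-fold lower than at P1 and at least 1.53-fold lower than at P14, taking 3 reads in each library as the floor, a limit that covers counting error only. Ccna2 shares 10.4% of its exon bases with Exosc9 on the other strand, and since strand-specific counting is not given in the sources used here, reads from that stretch could belong to either gene.

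All 5 mitotic kinases, Plk1, Aurka, Aurkb, Ttk and Bub1, fell from P7 to P14, and all but Aurka fell again from P14 to P28. Aurkb, the kinase of the chromosomal passenger complex that corrects faulty attachments, was the most abundant per length, with 399, 159 and 469 at P1, 392, 531 and 581 at P7, 68.8, 12.7 and 6.52 at P14, and 1.46, 0 and 1.35 at P28. P1 and P7 overlapped, while all P14 libraries lay below all P7 libraries (-4.68 ± 0.79, adjusted p = 7.09e-04). The call from P14 to P28 (adjusted p = 0.0118) rests on 2 reads over the 3 P28 libraries, and the same holds for Ttk. Aurka, which matures centrosomes, differed least between P1 and P7, with a log2 fold change of 0.11 ± 0.66. Its counts of 5.85, 4.72 and 14.9 at P28 overlapped the 6.35, 23.3 and 13.0 of P14.

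The passenger complex partners of Aurkb, the survivin gene Birc5 and the scaffold Incenp, fell as well in the second week. Birc5 had 278, 124 and 205 at P1, 207, 317 and 229 at P7, 0, 5.29 and 3.26 at P14, and 1.46, 2.36 and 0 at P28. It showed the largest fall of the 40 genes from P7 to P14 (88.0-fold on the means, -6.37 ± 0.81, adjusted p = 6.28e-05), and its P14 and P28 libraries overlapped. Incenp was at the edge of the test, with an adjusted p of 0.0499 and a log2 fold change of -3.06 ± 1.04. It had 82.6, 63.5 and 44.5 at P14 and 0, 56.6 and 27.0 at P28.

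Among the 6 spindle checkpoint genes, Ttk, Bub1, Bub1b and Cdc20 fell from P7 to P14, and Bub3 and Mad2l1 did not pass in the fit of all libraries. Bub3, the partner that brings Bub1 and Bub1b to the kinetochore, had 364, 223 and 296 at P1, 438, 453 and 436 at P7, 286, 203 and 276 at P14, and 99.4, 157 and 174 at P28. The P14 libraries all lay below those of P7, but the change was -0.81 ± 0.31 (95% interval -1.46 to -0.15, adjusted p = 0.0765). It passed with DESeq2 (-0.79, adjusted p = 0.0340) and with scaling by library totals (-1.07, adjusted p = 0.0194), and from P14 to P28 the change was -0.85 ± 0.31 (adjusted p = 0.0778). Over the whole period Bub3 fell 2.05-fold (-1.04 ± 0.31, adjusted p = 0.0167). Its kinase partner Bub1 had 257, 147 and 270 at P1, 327, 484 and 428 at P7, 21.2, 13.8 and 10.9 at P14, and 4.38, 1.18 and 2.70 at P28, with no overlap at any step. Bub1 fell 27.1-fold from P7 to P14 (-4.70 ± 0.58, adjusted p = 5.18e-05). Per length, Bub3 averaged 14.8 RPKM (reads scaled by transcript length and library size) at P1 against 7.37 for Bub1, and 5.31 against 0.0671 at P28. 

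Mad2l1, the checkpoint protein that binds Cdc20, had 108, 85.0 and 101 at P1 and 155, 178 and 157 at P7. At P14 it had 41.3, 2.12 and 56.5, and at P28 95, 3.54 and 105. The second library of each of these later ages was the low one, while the other two P28 libraries lay near the level of P1. The change from P7 to P14 was -3.06 ± 1.16 with an adjusted p of 0.0767, and that from P1 to P28 was -1.46 ± 1.16 with an adjusted p of 0.349.

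The anaphase genes parted. Ube2c, the ubiquitin-conjugating enzyme of the anaphase-promoting complex, had 586, 559 and 699 at P1, 928, 1170 and 1214 at P7, 53.0, 31.7 and 31.5 at P14, and 0, 0 and 5.41 at P28. Its ages did not overlap, and it fell 28.5-fold from P7 to P14 (-4.83 ± 0.64, adjusted p = 9.76e-05) and again from P14 to P28 (-4.38 ± 0.64, adjusted p = 9.29e-04). Ube2c shares 22.8% of its exon bases with Tnnc2 on the other strand. Cdc20, the activator of the complex, fell 8.96-fold and then 6.80-fold, and the separase gene Espl1 fell 10.1-fold from P7 to P14 (adjusted p = 0.0182) but had 39.5, 34.2 and 1.35 at P28 against 10.6, 27.5 and 21.7 at P14. Pttg1, which encodes securin, the inhibitor of separase, was the only gene of the 40 with a lower mean at P7 than at P1. It had 213, 362 and 223 at P1, 147, 106 and 84.5 at P7, 225, 219 and 201 at P14, and 291, 499 and 199 at P28. The P7 libraries lay below all those of P1 and of P14, although neither change passed (-1.23 ± 0.38, adjusted p = 0.0667; 0.96 ± 0.38, adjusted p = 0.0906). Per length, Pttg1 averaged 18.2 RPKM at P7 and 37.9 at P28, and it was the most abundant of the 40 genes at P28.

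**Figure D4:**
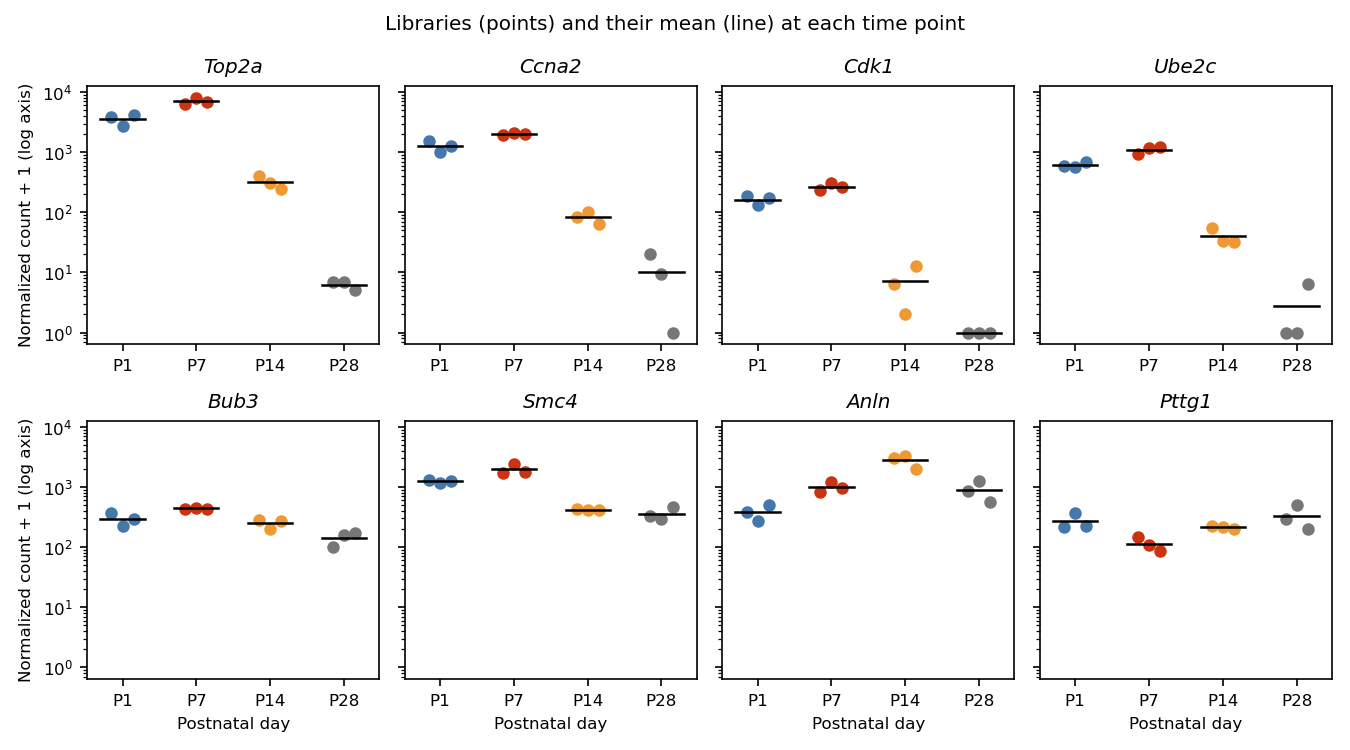
Points are single libraries and lines their means, as normalized count + 1 on a log axis, for 8 mitosis genes at P1, P7, P14 and P28. Top2a, Ccna2, Cdk1 and Ube2c are far lower at P14 than at P7 and lower again at P28, Bub3 and Smc4 drop less, Anln peaks at P14 and Pttg1 is lowest at P7.

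All 7 kinetochore and centromere genes fell from P7 to P14, with log2 fold changes of -2.24 (Nuf2) to -5.58 (Cenpf). Cenpa, the histone variant that marks the centromere, had 154, 83.6 and 169 at P1, 255, 225 and 236 at P7, 5.30, 46.5 and 33.7 at P14, and 2.92, 0 and 0 at P28. The ages did not overlap (P7 to P14 -3.46 ± 0.83, adjusted p = 0.00797). The Ndc80 complex, the microtubule-binding core of the kinetochore, has 4 subunits, Ndc80, Nuf2, Spc24 and Spc25, and their later levels were unequal. Ndc80 had 12.7, 14.8 and 23.9 at P14 and 1.46, 0 and 0 at P28, which is 1 read in all. Nuf2 had 72.0, 41.3 and 104 at P14 and 35.1, 100 and 14.9 at P28. Per length, Ndc80 and Nuf2 averaged 12.5 and 9.09 RPKM at P1, 21.7 and 18.2 at P7, 0.791 and 3.42 at P14, and 0.0199 and 2.01 at P28. Spc25 had 40.9, 0 and 0 at P28, so that its mean there came from the first library alone, and Spc24 had 5.85, 4.72 and 0.

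Of the 5 spindle and cytokinesis genes, Tpx2, Nusap1, Prc1 and Ect2 fell from P7 to P14 and Anln rose. Tpx2, the activator of Aurora A on the spindle, fell 19.5-fold (-4.27 ± 0.38, adjusted p = 3.11e-06). Prc1, which bundles midzone microtubules, had 216, 157 and 153 at P14 and fell 6.32-fold to P14 and 8.11-fold from there to P28. Prc1 shares 21.8% of its exon bases with Rccd1 on the other strand. Anln encodes anillin, a scaffold of the contractile ring that is also known from the myelin of oligodendrocytes, and it had 386, 272 and 510 at P1, 822, 1195 and 958 at P7, 3085, 3341 and 1974 at P14, and 868, 1277 and 559 at P28. Each P7 library lay above each P1 library and each P14 library above all others. Anln rose 2.55-fold from P1 to P7 (1.38 ± 0.31, adjusted p = 0.0135) and 2.82-fold from P7 to P14 (1.48 ± 0.31, adjusted p = 0.00346), and fell 3.11-fold from P14 to P28 (-1.68 ± 0.31, adjusted p = 0.00369). It made up 1.38% to 1.79% of the summed normalized counts of the 40 genes in the P1 libraries and 41.9% to 56.1% in those of P14.

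The myelin markers rose to P14 and fell by P28 as Anln did, and some other marker lists did so too. The 10 markers of myelinating oligodendrocytes had sums of 1570 to 2646 at P1, then 22398 to 34556 at P7, a peak of 349451 to 397877 at P14, and 105832 to 146521 at P28, none was at 0 in all libraries of an age, and 9, 10 and 0 of them were called higher in the 3 steps, with 8 called lower in the last. The part of oligodendrocyte RNA in the Anln values was not tested.

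From P7 to P14 the median log2 fold change of the 4 condensin genes was -2.73, against -4.13 over the 40 genes, and 3 of them fell by the test. Smc4, the most abundant of them per length, is a core ATPase of the complex and had 1333, 1147 and 1275 at P1, 1722, 2388 and 1775 at P7, 425, 417 and 409 at P14, and 323, 291 and 465 at P28. It fell 4.71-fold from P7 to P14 (-2.22 ± 0.21, adjusted p = 5.54e-06), and its P14 and P28 libraries overlapped (-0.24 ± 0.21, 95% interval -0.69 to 0.21, adjusted p = 0.473). Its partner Smc2 had 204, 186 and 211 at P14 and 216, 213 and 418 at P28, after a 7.44-fold fall. Both Smc2 and Smc4 also belong to the second condensin complex. Ncapg, a subunit of condensin I and not of the second complex, had 108, 59.3 and 133 at P1, 196, 300 and 193 at P7, 28.6, 22.2 and 20.6 at P14, and 0 in all 3 libraries at P28. At P28 it was at least 25.1-fold lower than at P1 and at least 5.96-fold lower than at P14. Ncapg shares 20.8% of its exon bases with Lcorl on the other strand. Ncaph, the kleisin of condensin I, had 390, 382 and 522 at P1, 524, 590 and 544 at P7, 139, 44.4 and 127 at P14, and 42.4, 1.18 and 237 at P28. The P28 libraries ranged from about 1 read to above every P14 library, and neither step passed (P7 to P14 -2.57 ± 1.13, adjusted p = 0.129).

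Top2a, which untangles sister chromatids, and Mki67, which coats mitotic chromosomes, were the most abundant of the 40 genes per length at P1 and P7, at 77.5 and 74.6 RPKM at P1 and 158 and 134 at P7. Normalized counts of Top2a were 3880, 2733 and 4223 at P1, 6292, 8052 and 6891 at P7, 402, 306 and 244 at P14, and 5.85, 5.90 and 4.06 at P28. No libraries of neighbouring ages overlapped. Top2a rose 1.96-fold from P1 to P7 (0.99 ± 0.26, adjusted p = 0.0300), fell 22.3-fold to P14 (-4.50 ± 0.26, adjusted p = 1.23e-07) and fell a further 60.3-fold to P28 (-5.65 ± 0.26, adjusted p = 3.00e-08), the largest fall of that step. Those of Mki67 were 8296, 3951 and 7866 at P1, 9915, 13819 and 10897 at P7, 579, 307 and 296 at P14, and 30.7, 9.44 and 18.9 at P28. Mki67 fell 29.3-fold and then 20.0-fold (adjusted p = 1.16e-06 and 5.81e-05), and its difference between P1 and P7, 0.84 ± 0.39, did not pass (adjusted p = 0.247). Together Mki67 and Top2a made up 39.5% to 47.3% of the summed normalized counts of the 38 genes in the P1 and P7 libraries, and 1.37% to 2.93% in those of P28.

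Foxm1 and Mybl2 encode transcription factors that act on late cell cycle genes, and both fell from P7 to P14. Foxm1 had 672, 409 and 597 at P1, 708, 656 and 568 at P7, 56.1, 26.4 and 4.34 at P14, and 36.5, 2.36 and 1.35 at P28. P1 and P7 overlapped (0.23 ± 0.95, adjusted p = 0.954), and P14 lay below both (P7 to P14 -4.98 ± 0.95, adjusted p = 0.00179). Mybl2 had 165, 59.3 and 71.9 at P1, 147, 128 and 115 at P7, 20.1, 3.17 and 0 at P14, and 0, 35.4 and 27.0 at P28. It fell from P7 to P14 (-4.88 ± 1.27, adjusted p = 0.0134), and its change from P14 to P28, 1.18 ± 1.27, was the highest of the 40 genes in that step without passing (adjusted p = 0.574).

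At P28 little of the set was left. In the 3 P28 libraries 6, 9 and 13 of the 40 genes had 0 reads, against 0 genes in every P1 and P7 library and 0 to 2 in those of P14. Detection fell over the 24421 entries as well. Genes with a read numbered 17464 to 18051 in the P1 and P7 libraries, 16197 to 16642 at P14 and 14249 to 14749 at P28. Only 6 of the 40 genes, Bub3, Pttg1, Nuf2, Anln, Smc2 and Smc4, had at least 10 reads in each P28 library. The same 6 had at least 10 reads in each of the 12 libraries, as did 10911 of the 24421 entries. Ranked per length among 15318 tested genes with a known transcript length, the median percentile of the 40 genes was 61.8 at P1 and 74.7 at P7, then 15.2 (P14) and 10.9 (P28). The scatter between libraries followed the level. The median coefficient of variation of the 40 genes was 30.5%, 12.9%, 46.9% and 91.3% at the 4 ages, in order, against 23.6%, 17.4%, 29.1% and 46.4% for all genes tested.

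In the mitosis genes, the libraries of P1 and P7 were not alike within an age. The second P1 library was the lowest of its age for 36 of the 40 genes, and the second P7 library, the shallowest of all, was the highest for 27. When either of these libraries was left out, neither Top2a nor Anln passed from P1 to P7 (0 genes called), and Top2a also did not pass without P1 replicate 1, P7 replicate 1 or P7 replicate 3. In the second P1 library the GABAergic interneuron lineage markers summed to 1111, against 2241 and 3842 in the other two, and the endothelial markers to 3597, against 786 and 1097. In the second P7 library the astrocyte markers summed to 29291, against 53547 and 49516, and the endothelial markers to 10528, against 2672 and 1757. The part of these differences in the values of the mitosis genes was not tested.

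Markers of 2 other dividing lineages of the young cerebellum were also lower at P14 than at P7, without the further fall of the mitosis genes by P28. The 10 granule neuron precursor markers had sums of 10515 to 11732 at P1, a peak of 19409 to 21455 at P7, then 7928 to 8613 at P14, and 7382 to 9350 at P28, and 1 of them was called higher from P1 to P7, while from P7 to P14 5 were called lower and 1, Gli1, higher. Atoh1, the defining factor of these precursors, had 16.0, 0 and 15.9 at P1 and 30.3, 34.0 and 45.0 at P7 and was at 0 in all 6 libraries of P14 and P28. Ccnd2, a cyclin used by dividing cells in general and therefore no specific mark, averaged 2572 ± 701 at P1, 5528 ± 876 at P7 and 349 ± 177 at P14. The 8 markers of the GABAergic interneuron lineage had sums of 1111 to 3842 at P1, a peak of 4418 to 8984 at P7, then 472 to 703 at P14, and 444 to 1144 at P28, with 7 of 8 called lower from P7 to P14. Ptf1a, the factor that specifies this lineage, was at 0 in all P14 libraries. The 7 oligodendrocyte precursor markers took another course, with sums of 7803 to 11868, 5074 to 5784, 9923 to 10915 and 3051 to 5223 at the 4 ages, in order. The part of these lineages in the level of the mitosis genes was not tested.

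**Figure D5:**
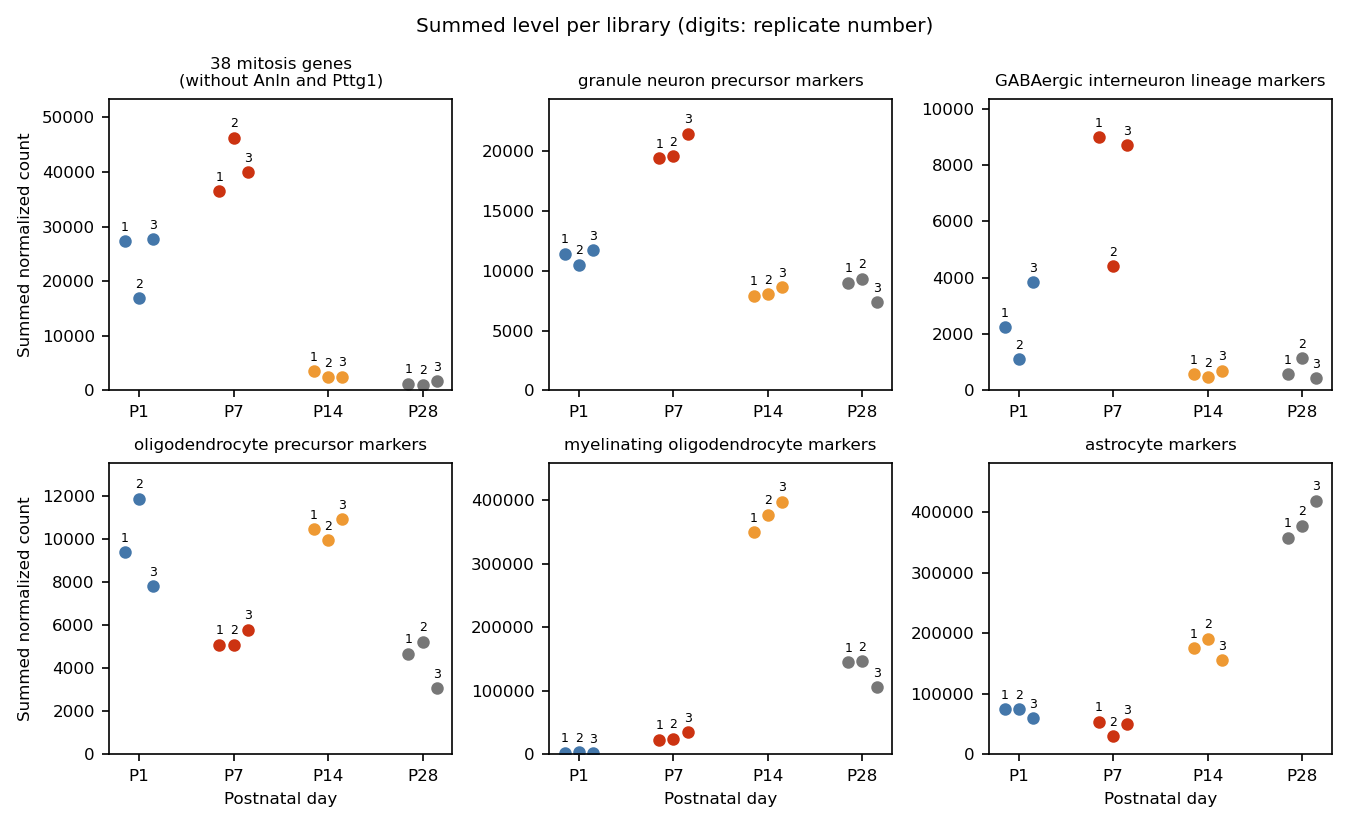
Each point is the summed normalized count of a gene list in 1 library, with its replicate number, at P1, P7, P14 and P28; the vertical axes start at 0. The 38 mitosis genes, the granule neuron precursor markers and the interneuron lineage markers are highest at P7, the myelinating oligodendrocyte markers at P14 and the astrocyte markers at P28.

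Beyond the 40 genes, 138 other genes of the same machinery were listed, and all 138 were tested. From P1 to P7 1 of them, the E2F partner Tfdp2, rose and 0 fell. From P7 to P14 60 fell (43.5%, against 10.0% of all genes tested) and 2, Anapc16 and Nek7, rose (1.45%, against 10.8%). From P14 to P28 17 fell (12.3%, against 8.76%) and 9 rose (6.52%, against 5.68%), shares near those of all genes. From P7 to P14 the genes that fell were 18 of 37 other kinetochore and centromere genes (median log2 fold change -2.43), 14 of 32 other spindle, centrosome and cytokinesis genes (-1.73) and 10 of 18 other kinases and phosphatases (-2.11). They were also 8 of 13 cohesin genes (-0.74), 5 of 17 genes of the anaphase-promoting complex (-0.47), 4 of 17 MuvB, E2F and pocket protein genes (-0.72) and 1 of 4 other condensin genes (-1.17). Within a list the levels parted as well. The kinetochore scaffold Knl1, listed under its older symbol Casc5, averaged 1379 ± 201 at P7 and 31.6 ± 2.94 at P14, whereas Zwint, which binds it, averaged 597 ± 28.9 and 634 ± 105. Subunits Cdc27 and Anapc1 of the anaphase-promoting complex averaged 1934 ± 46.1 and 1823 ± 59.7 at P7 and 1588 ± 516 and 1182 ± 130 at P28, ages at which their coactivator Cdc20 averaged 245 ± 6.40 and 4.03 ± 1.63. The cohesin subunit Smc3 averaged 2919 ± 64.2 at P7 and 2206 ± 41.5 at P28, and the cohesin loader Nipbl 4575 ± 208 and 3011 ± 1126. The retinoblastoma gene Rb1, which restrains the cell cycle, averaged 1694 ± 277 at P1, 1955 ± 192 at P7 and 3120 ± 298 at P28, and rose from P14 to P28 by 0.52 on the log2 scale (adjusted p = 0.0453). Its relative Rbl2 averaged 942 ± 152 at P1, 597 ± 21.2 at P7 and 1011 ± 138 at P28. Condensin II subunit Ncapd3 averaged 441 ± 96.2 at P1, 755 ± 34.7 at P7 and 580 ± 156 at P28, while the condensin I subunit Ncapd2 averaged 705 ± 149, 858 ± 124 and 104 ± 89.3. The kinases Nek9 and Nek6 averaged 1077 ± 276 and 746 ± 134 at P1, 777 ± 60.8 and 454 ± 31.8 at P7, and 1057 ± 173 and 504 ± 146 at P28. The microtubule polymerase gene Ckap5 averaged 4572 ± 223 at P1, 3973 ± 292 at P7 and 6498 ± 967 at P28, and the small GTPase gene Rhoa 1975 ± 418, 1681 ± 79.6 and 3211 ± 441.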

How the data were processed

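RNA from GFP-positive cerebellar cells was sequenced in 12 libraries, and the authors aligned paired reads to mm10 with STAR (version 2.5.0a), counted them per gene and normalized them with DESeq2, per the labels and the study's methods; versions are those of the submitters' processing notes, which give 1.30.1 for DESeq2, where the study's methods name another. The deposited values are normalized counts (a signal), each library's counts divided by 1 size factor; 100% of them were whole reads within 0.001 read, and these recovered reads gave depth, floors and count tests. The column names carry P28 at every age, so ages rest on the labels, and strand and shared reads are not given in the sources used here. limma 3.58.1 (R 4.3.3) was run on log2(value + 1) with a variance trend and 1 mean per age for 15464 genes, with Benjamini-Hochberg adjustment over all of them. The recovered reads were also tested with edgeR 4.0.16 and DESeq2 1.42.0. Scripts were tested on simulated data. Levels per length (RPKM) used the median length of the protein-coding transcripts of GENCODE M21. Members, gene lists and markers were chosen with earlier results of these data known. Values per library are given for the most abundant gene of each role, the largest changes, genes against the common direction from P7 to P14, genes at 0 reads and some partners added after their values were seen. Alternatives changed the tool, scaling, pseudocount, filter, samples fitted and promoter window, and left out each library.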

Additional observations from a re-analysis of the deposited data

How the results depend on the processing

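The counts of genes called depended on the settings mostly in the first step. From P1 to P7, 2 genes passed, against 5 by an unadjusted p under 0.05 with a log2 fold change over 0.75, 6 with DESeq2, 17 with only the 2 ages fitted, and 0 to 5 when 1 library was left out. The share of all genes was not taken for the unadjusted rule or for the fits without 1 library. Without the second P1 or the second P7 library both calls were lost, and without P28 replicate 3 Pttg1, Smc2 and Smc4 passed as well. Requiring at least 10 reads in every library kept 6 of the 40 genes, since each of the others had fewer in at least 1 P28 library. This filter called 1, 4, 1 and 5 genes in the steps P1 to P7, P7 to P14, P14 to P28 and from P1 to P28, against 2, 36, 17 and 37. With only the 2 ages fitted, 6 genes passed from P14 to P28. Leaving out 1 library kept 32 to 36 of the 36 calls from P7 to P14, with Incenp lost most often, 13 to 17 of the 17 from P14 to P28, with Cdk1 and Plk1 lost most often, and 34 to 37 of the 37 from P1 to P28. The change of Pttg1 from P1 to P28, 0.25, had the other sign with library totals (-0.19) and ranged from -0.10 to 0.56 over the fits without 1 library, with P28 replicate 2 giving the lowest. Scaling by library totals moved the median of all genes from -0.086 to -0.341 in the second step, from -0.122 to -0.349 in the third and from -0.235 to -0.660 over the whole period, and that of the 40 genes from -4.13 to -4.39, -1.88 to -2.04 and -5.58 to -5.94.

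Whether the replicate numbers pair the libraries cannot be told from 3 libraries per age. The deviations of same-numbered libraries correlated at -0.029 to 0.139 over 18 pairs, 1 of them over 0.1. Those of libraries with different numbers correlated at -0.105 to 0.0536. A fit with the replicate block called 2, 36, 17 and 37 genes in the 4 comparisons, as many as the fit without it, with Mad2l1 gained (adjusted p = 0.0356) and Incenp lost from P7 to P14. At 3 reads or fewer in 13, 19 and 23 of the 40 genes in the P28 libraries, depth limits what can be told of changes after P14.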
